A study of Mus musculus with 4 samples.

Results

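Cytotoxic lymphocytes kill by releasing granules that carry granzymes, a family of serine proteases, together with perforin, which lets them into the target cell. The granule also holds serglycin, a proteoglycan that packs its basic proteins, and the killer cell keeps a serpin inhibitor in its own cytosol. The cells studied here, immature CD4+CD8+ (double-positive) T cells of the thymus, are not killer cells. Described here are 10 genes of this machinery: Gzma, Gzmb, Gzmc, Gzmk and Gzmm (granzymes), Prf1 (perforin), Nkg7 (a granule membrane protein), Ctsw (cathepsin W, a cysteine protease of cytotoxic cells), Srgn (serglycin) and Serpinb9 (the granzyme B inhibitor). They were chosen by name, with earlier results of these data known, as the probe sets whose only annotated gene symbol is one of these. This gave 12 probe sets for all 10 genes, of 28898 probe sets with a single symbol for 17097 genes and 45037 probe sets in all.

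Flow cytometry was used to isolate double-positive thymocytes of untreated C57BL/6 mice, and their RNA was hybridised to 1 array per sample. There were 2 arrays titled WT (replicates 1 and 2) and 2 titled hCD2-iCre x Gfi1fl/fl (replicates 1 and 2), in which a recombinase under human CD2 sequences, active in lymphoid cells, is combined with floxed alleles of Gfi1, a zinc-finger transcriptional repressor. Nothing says that the WT mice carried the recombinase, so an effect of iCre alone and that of losing Gfi1 cannot be told apart. Neither the ages of the mice nor the animals behind each replicate are given, so the error behind every p-value is the spread of these samples alone and may be technical. All values are log2 RMA signals, in which a step of 1 is a 2-fold difference in signal. Differences are the hCD2-iCre x Gfi1fl/fl label minus the WT label.

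The tissue label was checked first. All 9 measured genes of the double-positive list, among them Cd4, Cd8a, Cd8b1, Rag1 and Rag2, were above the median of every array by their brightest probe set. Of all 45037 probe sets, 20614 cleared the same bar, so passing it does not by itself tell these cells from other thymocytes. Gfi1 itself went against the labels: its 1 probe set read 10.13 ± 0.06 on the WT arrays and 11.39 ± 0.11 on the others (SD, n = 2 each; limma, adjusted p = 0.00976, 0.0526 or 0.0683 without WT replicate 1 or 2, and 0.0511 without an intensity trend). Where that probe set lies relative to the floxed exons is not given in the sources used here, so every direction below is one between labels. The array medians lay between 3.53 and 3.55, and a probe set below them is called low here. RMA compresses differences at that level, and in a sorted population more RNA per cell and more cells with the RNA cannot be told apart.

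Gzma, which encodes granzyme A, a protease that cuts after basic residues, was the only one of the 12 probe sets that passed the test. Its signal was 9.90 and 9.67 on WT replicates 1 and 2, and 11.33 and 11.55 on hCD2-iCre x Gfi1fl/fl replicates 1 and 2. Both arrays of the second label lay above both WT arrays, and the steps between replicates were 0.22 and -0.23 (replicate 2 minus replicate 1) against a gap between labels several times larger. The difference was 1.65 ± 0.15 (SE), a 3.14-fold higher signal, with a 95% interval of 1.28 to 2.01 (limma, adjusted p = 0.00549 over all 45037 probe sets). With any 1 array left out the difference was 1.53 to 1.76 and still called, in fits that set 1 array against 2 and take the spread from the label with 2 arrays and the prior. Gzma was already far above the array median in the WT samples, so its rise was not one from a signal near the floor.

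The test called 345 probe sets in all (0.766%), of which 299 were higher (0.664%) and 46 lower (0.102%). The 1 call among the 12 probe sets is set against these shares as a description, because the members were chosen with earlier results known. The median difference over the 12 was 0.0098, against -0.0091 over all probe sets, and 6 of the 12 differences were above 0, against 47.2% of all. Groups did not overlap for 7 of the 12, with 4 higher and 3 lower on the hCD2-iCre x Gfi1fl/fl label, while 34.7% of all probe sets did not overlap. By these counts 1 of the 10 genes rose, none fell and 9 did not pass.

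**Figure D1:**
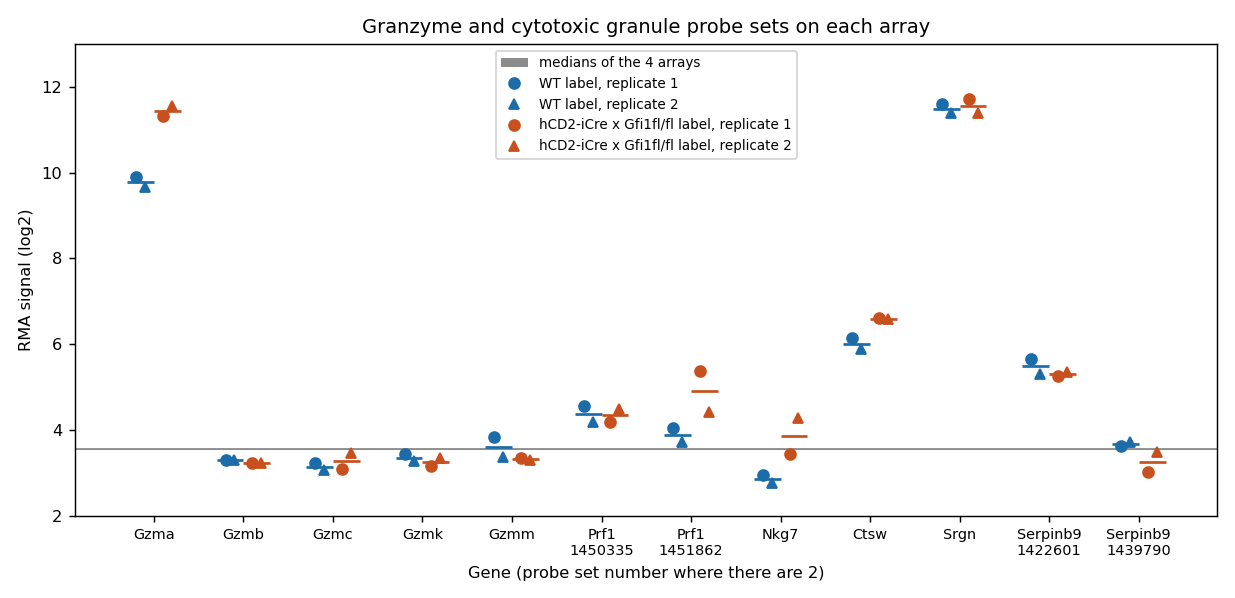
RMA signal (log2, vertical axis) of each of the 12 probe sets on each of the 4 arrays. Blue points are the WT label and orange points the hCD2-iCre x Gfi1fl/fl label, short lines are group means, and the grey line marks the array medians. Gzma is separated by label at a high signal (9.67 to 9.90 against 11.33 to 11.55), while Gzmb, Gzmc and Gzmk lie below the medians on every array.

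Gzma and Gzmk are direct neighbours on chromosome 13 in RefSeq's order of coding genes, and only the first passed the test. The 250 bases upstream of their annotated starts are therefore shown, from RefSeq on build GRCm38.p6, both genes on the minus strand. The Gzma window is chr13:113100982-113101231 and the Gzmk window chr13:113180966-113181215. Capitals mark matches, on either strand, to AATC (the core bound by GFI1) or TGTGGT (the core bound by RUNX factors). GTAAACA (the forkhead core of FOXO factors) was also searched on both strands, and no capitals here mark it.
Gzma: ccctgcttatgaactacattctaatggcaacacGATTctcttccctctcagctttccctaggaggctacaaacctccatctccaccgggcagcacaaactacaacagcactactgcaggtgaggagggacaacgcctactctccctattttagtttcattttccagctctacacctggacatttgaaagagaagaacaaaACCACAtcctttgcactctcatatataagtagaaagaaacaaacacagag
Gzmk: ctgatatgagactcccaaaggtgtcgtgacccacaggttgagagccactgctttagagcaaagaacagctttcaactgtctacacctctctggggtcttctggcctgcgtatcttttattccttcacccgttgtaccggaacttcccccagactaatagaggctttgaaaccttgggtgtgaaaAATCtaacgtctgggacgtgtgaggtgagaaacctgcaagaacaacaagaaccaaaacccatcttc

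The Gzma window holds 1 AATC match, beginning 217 bases before the start, and 1 TGTGGT match, beginning 50 bases before it. The Gzmk window holds 1 AATC match, beginning 66 bases before the start, and none of the other 2 motifs. Of all 32851 RefSeq windows of this length, 69% hold AATC, 14% TGTGGT and 3.17% GTAAACA. Windows were found for 9 of the 10 genes, 11 windows in all. AATC occurred in 7 of the 11, TGTGGT in 7 and GTAAACA in 0. Both printed windows hold AATC, as most windows do, and only the Gzma window holds TGTGGT. Gzmk was low on every array, so the pair's difference in call cannot be read against these matches. A match is a description of letters and not a bound site, and binding was not measured.

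The other 4 granzymes gave signals below the median of every array, except Gzmm on WT replicate 1. Gzmb, the granzyme that cuts after aspartate and triggers caspases, read 3.29 and 3.31 on the WT arrays and 3.22 and 3.24 on the others. The groups did not overlap, but the difference was only -0.07 (95% interval -0.34 to 0.20; limma, adjusted p = 0.995). Gzmc, next to Gzmb in the granzyme cluster of chromosome 14, read 3.22 and 3.06 against 3.09 and 3.46, with overlapping groups. Its difference was 0.13 (interval -0.23 to 0.50; adjusted p = 0.967, limma).

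Gzmk, a tryptase of memory-type T cells, read 3.43 and 3.27 on the WT arrays and 3.16 and 3.35 on the others, again with overlap. The difference was -0.09 (interval -0.41 to 0.22; adjusted p = 0.991, limma). Gzmm, which prefers to cut after methionine or leucine and is a granzyme of innate lymphocytes, read 3.84 and 3.36 on the WT arrays and 3.35 and 3.30 on the others. Only WT replicate 1 was above its array's median. The difference of -0.28 (interval -0.71 to 0.16; adjusted p = 0.858, limma) shrank to -0.03 without that array. All 4 intervals exclude a rise of the size seen for Gzma in signal, but at signals this low a change in transcript may not show.

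The 5 further granzyme genes of the chromosome 14 cluster, Gzmd, Gzme, Gzmf, Gzmg and Gzmn, were low on every array with all 7 of their probe sets. None was called, and their differences ran from -0.20 for Gzmn to 0.18 for a second probe set of Gzmd. Gzmd by its brightest probe set differed by 0.14 (limma, adjusted p = 0.911). Members of this cluster are close relatives, and their probe sets may share signal. Gzma was thus the only one of 10 granzyme genes measured here that passed the test.

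Prf1, which encodes the pore-forming protein perforin, had 2 probe sets that disagreed. With 1451862_PM_a_at the WT arrays read 4.04 and 3.73 and the hCD2-iCre x Gfi1fl/fl arrays 5.38 and 4.41. The groups did not overlap, but the 2 arrays of the second label lay 0.97 apart, with replicate 1 the higher. The difference was 1.01 ± 0.33 (SE; interval 0.22 to 1.80; limma, adjusted p = 0.454), and it was 1.497 without hCD2-iCre x Gfi1fl/fl replicate 2 and 0.53 without replicate 1. With 1450335_PM_at the values were 4.55 and 4.19 against 4.18 and 4.49, and the groups overlapped. That difference was -0.03 (interval -0.58 to 0.52; adjusted p = 1.00, limma). Neither probe set passed, and their point estimates give no common direction.

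Nkg7, whose product sits in the granule membrane and is needed for efficient degranulation, was low on both WT arrays, at 2.95 and 2.77. It read 3.43 and 4.28 on the hCD2-iCre x Gfi1fl/fl arrays, so that only replicate 2 of that label was above its array's median. The groups did not overlap, and the difference was 0.99 ± 0.26 (SE; interval 0.37 to 1.61). It did not pass (limma, adjusted p = 0.277). Without hCD2-iCre x Gfi1fl/fl replicate 1, with 1 array of that label left, it was 1.42 with an adjusted p of 0.00692, within a range of 0.00692 to 0.536 over the moderated alternatives. Without replicate 2 of that label it was 0.57, with an adjusted p of 0.225 (limma). Replicate 2 of that label was thus the higher for Nkg7 and the lower for Prf1 1451862_PM_a_at.

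Those 2 arrays also differed in the cell cycle list, whose mean over 9 genes was 8.33 on replicate 1 and 10.27 on replicate 2 of the hCD2-iCre x Gfi1fl/fl label, against 9.07 and 9.79 on the WT arrays. Its part in the Nkg7, Prf1 and Gzma values was not tested. For Gzma the 2 arrays lay 0.22 apart. Ccna2 and Cdk1, a cyclin and its kinase, differed between labels by -0.32 and -0.23, with the 2 arrays of the second label on either side of the WT arrays.

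Ctsw, a protease found mainly in cytotoxic lymphocytes, read 6.14 and 5.87 on the WT arrays and 6.61 and 6.58 on the others. The groups did not overlap, and the difference was 0.59 ± 0.24 (SE), a 1.51-fold ratio with an interval of 0.01 to 1.17 (limma, adjusted p = 0.636). Leaving out any 1 array gave 0.46 to 0.72, without a call. It thus did not pass the test over all probe sets, although the second label was the higher in each of these fits.

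Srgn, which encodes the granule proteoglycan serglycin and is widely expressed in blood cells, was high on all arrays and did not separate them. It read 11.59 and 11.40 on the WT arrays and 11.71 and 11.38 on the others. The difference was 0.05 (interval -0.29 to 0.39; limma, adjusted p = 1.00), so a 2-fold difference in signal lies outside the interval. Of 7 measured enzymes that build the glycosaminoglycan chains serglycin carries, none passed with any of 9 probe sets. Their median difference was -0.37, and 1 of the 9 was above 0. Csgalnact2 and Csgalnact1, which start chondroitin chains, differed by -0.50 and -0.48 (adjusted p = 0.703 and 0.765, limma).

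Serpinb9, the cytosolic inhibitor that protects killer cells from their own granzyme B, had 2 probe sets and neither passed. 1422601_PM_at read 5.66 and 5.30 on the WT arrays and 5.25 and 5.36 on the others, overlapping, with a difference of -0.18 (interval -0.76 to 0.41; limma, adjusted p = 0.988). 1439790_PM_at read 3.62 and 3.71 against 3.02 and 3.48, with no overlap and a difference of -0.41 (interval -0.84 to 0.01; adjusted p = 0.668, limma). Both estimates were negative, but the first was -0.0013 without WT replicate 1 and -0.36 without WT replicate 2. The second, at a signal near the array medians, was -0.19 or -0.64 without replicate 1 or 2 of the hCD2-iCre x Gfi1fl/fl label. Of 9 measured relatives and other intracellular protease inhibitors none passed, and the largest differences were -0.63 for Serpinb6a and -0.26 for Serpinb6b. That of Serpinb6a was -0.13 without hCD2-iCre x Gfi1fl/fl replicate 2 and -1.13 without replicate 1.

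**Figure D2:**
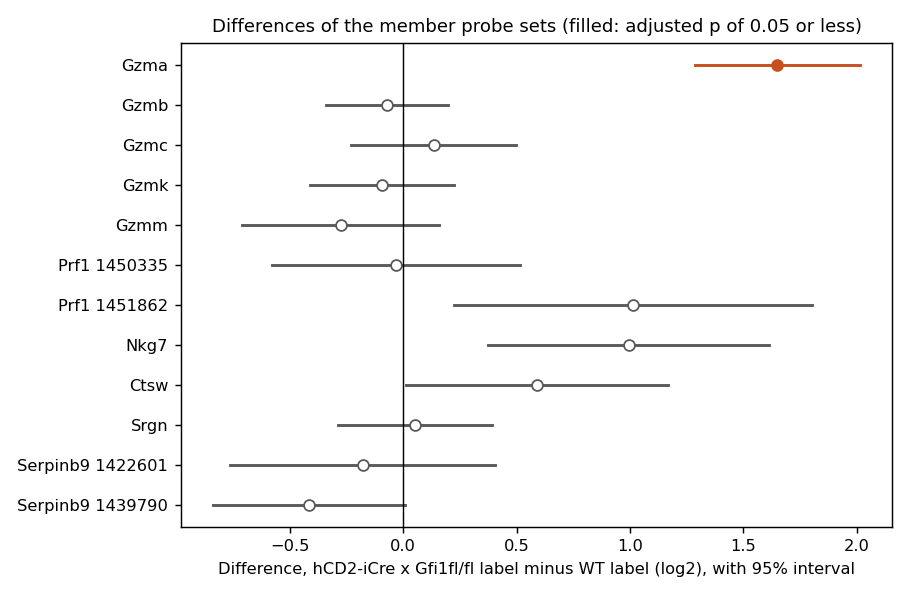
Difference between labels (log2, horizontal axis) for each of the 12 probe sets, with 95% intervals from the limma fit; a filled point passed the test. Gzma stands at 1.65 with an interval of 1.28 to 2.01, and Nkg7 and Prf1 1451862_PM_a_at at 0.99 and 1.01 with wider intervals and no call.

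Genes that act with the granule proteins were read from 9 lists, with 86 of 102 genes measured by 155 probe sets. Of these, 4 probe sets of 4 genes were called (2.58%), all higher, against 0.664% called higher over the array. The lists were chosen with earlier results of these data known, so this higher share is a description and not support. Among 11 measured genes of granzyme processing, lysosomal sorting and the granule membrane, none of 25 probe sets passed, and the median difference was -0.06. Ctsc, the peptidase that activates granzymes, differed by 0.03 and Lamp1, the granule membrane glycoprotein, by 0.06 (both named after their values were seen). Ctsl, a lysosomal cathepsin, differed by -0.53 and Gnptab, which makes the mannose 6-phosphate sorting tag, by -0.31 (adjusted p = 0.537 and 0.948, limma).

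Of 17 measured genes of granule transport and exocytosis, 1 passed. Lyst, whose loss causes giant granules in Chediak-Higashi syndrome and beige mice, read 10.51 and 10.38 on the WT arrays and 11.35 and 11.29 on the others by its brightest probe set. All 4 arrays were high, the groups did not overlap, and the difference was 0.88 ± 0.13 (SE; limma, adjusted p = 0.0346). The call was kept under 7 of 14 alternatives. It was lost without any 1 array, with differences of 0.81 to 0.95 in those fits. The 2 dimmer Lyst probe sets differed by 0.97 and 0.45 without a call. The median over the 38 probe sets of the list was 0.0019, with 19 above 0. Sytl3 differed by 0.94, Sytl2 by -0.82 and Unc13d, the priming factor of granule fusion, by -0.67. None was called (adjusted p = 0.247, 0.337 and 0.527, limma), and all were named after their values were seen.

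Of 10 measured granzyme substrates and SET complex genes none passed. Bid, the death protein that granzyme B cuts, read 7.79 and 7.44 on the WT arrays and 5.96 and 6.67 on the others, a difference of -1.30 ± 0.31 (SE; limma, adjusted p = 0.214). Its dimmer probe sets differed by -0.93 and by -0.003, the last low on every array. Trex1, the exonuclease of the SET complex, a granzyme A target, differed by -0.62 (adjusted p = 0.621, limma). The median over the 16 probe sets was -0.13.

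Among 6 other cytotoxic ligands and cytokines, Lta passed. It encodes lymphotoxin alpha, a TNF family cytokine of lymphocytes. It read 3.51 and 3.66 on the WT arrays and 6.42 and 6.05 on the others, without overlap. The difference was 2.65 ± 0.24 (SE), or 6.26-fold in signal (limma, adjusted p = 0.00501, and up to 0.0349 over the moderated alternatives). The median over the 9 probe sets of the list was 0.19.

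Of 13 measured transcription factors of the cytotoxic programme, 1 was called, by 1 of 25 probe sets. Id2, an inhibitor of E proteins, had 3 probe sets with differences of 1.67, 1.74 and 2.00 (limma, adjusted p = 0.0587, 0.0627 and 0.0425). The call of the third was kept under 8 of 12 alternatives. Among its losses were the fits without WT replicate 1 and without hCD2-iCre x Gfi1fl/fl replicate 2. Leaving out any 1 array gave differences of 1.62 to 2.38 for that probe set. Runx3, a factor of CD8 T cells, read 4.59 and 4.54 against 5.64 and 6.04, a difference of 1.28 (adjusted p = 0.109, limma). A dimmer Runx3 probe set was low on every array and differed by 0.08, with overlapping groups. Tbx21 and Eomes, the T-box activators of granzyme B and perforin, were low on every array, with differences of 0.10 each by their brightest probe sets (adjusted p = 0.940 and 0.937, limma; named after their values were seen). Stat4 read 8.45 and 8.42 on the WT arrays and 9.67 and 9.49 on the others, a difference of 1.14. Bach2 differed by 1.00 by its brightest probe set. Neither was called (adjusted p = 0.0586 and 0.491, limma), and both were named after their values were seen. The list's median was 0.13, with 18 of its 25 probe sets above 0.

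Of 8 measured cytokine receptor genes that can induce granule proteins, only Il18r1, the ligand-binding chain for interleukin 18, passed. It read 3.07 and 2.85 on the WT arrays and 10.80 and 10.32 on the others, a difference of 7.60 ± 0.27 (SE; limma, adjusted p = 0.000217). Il18rap, the second chain of that receptor, read 3.32 on both WT arrays and 4.11 and 4.19 on the others, without a call (adjusted p = 0.0926, named after its values were seen). A dimmer Il18rap probe set differed by 0.13. Il12rb1 and Il15ra differed by 0.99 and 1.00 by their brightest probe sets, also without a call (adjusted p = 0.377 and 0.416, limma). Both were named after their values were seen. The median over the 13 probe sets was 0.19, with 11 above 0.

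**Figure D3:**
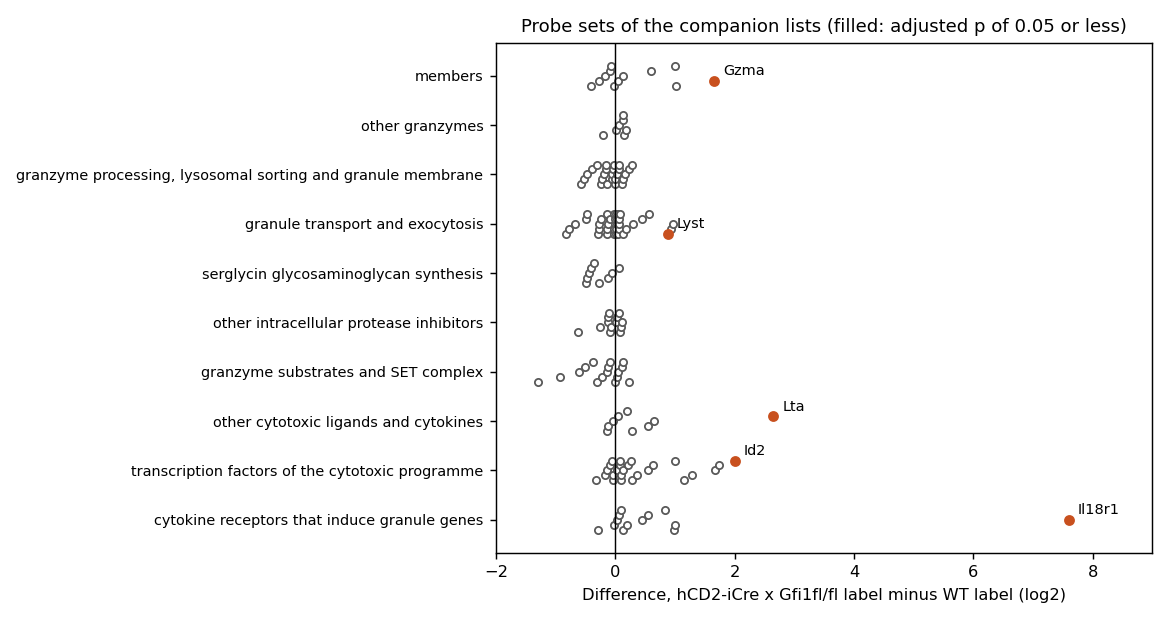
Difference between labels (log2, horizontal axis) for every probe set of the 10 genes (top row) and of the 9 companion lists. Filled points passed the test and are named; Il18r1 at 7.60, Lta at 2.65, Id2 at 2.00 and Lyst at 0.88 are the 4 called among 155 companion probe sets.

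Lists of markers of other cells that hold granule proteins were read on the same arrays. All 9 measured natural killer cell markers, among them Ncr1, Klrb1c, Klrd1 and Tyrobp, were low on all 4 arrays with all 11 probe sets. The list's mean level was 3.08 and 3.06 on the WT arrays and 3.10 and 3.19 on the others, and Klrd1 and Klra8 differed by 0.24 and 0.15 without a call (limma, adjusted p = 0.595 and 0.930). Of 8 mast cell markers 7 were low on every array, with mean levels of 3.05 to 3.19 on the WT arrays and 3.09 to 3.12 on the others. Kit and Tpsb2 differed by -0.44 and 0.17 without a call.

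Of 8 measured markers of effector or memory CD8 T cells, none was called higher and Cd44, the adhesion receptor of memory cells, was called lower. It read 6.81 and 6.68 on the WT arrays and 3.57 and 3.60 on the others (limma, adjusted p = 0.00200). Differences were above 0 for 10 of the list's 15 probe sets, the largest being 1.38 for Cxcr3, a chemokine receptor gene, which read 2.84 and 2.88 against 4.85 and 3.64 without a call (adjusted p = 0.251, limma; named after its values were seen). The list's mean level was 3.51 to 3.65 on the WT arrays and 3.49 to 3.57 on the others. That mean includes Cd44, whose lower signal pulls it down on the second label. Of 6 measured gamma-delta T cell markers 2 were called higher: Cd163l1, a scavenger receptor gene, by 7.45 and Maf, a transcription factor, by 3.96 (adjusted p = 0.000315 and 0.00661, limma; 0.0673 for Maf without an intensity trend). The list's mean, which includes Cd163l1 and Maf, was 5.28 and 5.34 on the WT arrays and 7.61 and 7.11 on the others, with 4 of its 8 probe sets above 0. Sox13, its lineage factor, was low on all arrays. Trdc and Trgc1, also on the list, had no probe set with a single symbol. Cd27 and the 2 probe sets of Il17re differed by -0.05, -0.28 and -0.45, and Blk by 1.24, all without a call. Blk read 3.67 and 3.62 on the WT arrays and 5.38 and 4.39 on the others, without overlap (adjusted p = 0.265, limma). These genes were named after their values were seen. The part of such cells in the Gzma difference was not tested.

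Myeloid markers had mean levels of 3.25 to 3.44 on the WT arrays and 3.35 to 3.38 on the others, with 0 of 10 genes called; Lyz2 and Ngp differed by 0.51 and -0.30. B cell markers ran from 3.96 to 4.12 against 3.70 to 3.95 with 0 of 5 called, and Cd79b and Ms4a1 differed by -1.23 and 0.19. By their brightest probe sets 4 of the 5 were low on every array. Cd79b, which the mean includes, read 8.26 and 7.88 on the WT arrays and 7.41 and 6.28 on the others. Without hCD2-iCre x Gfi1fl/fl replicate 1 the Cd79b difference was -1.79 and was called (limma, adjusted p = 0.0415), and without replicate 2 it was -0.66 and was not (0.729). Of the double-positive genes only Dntt, the template-independent polymerase of receptor rearrangement, was called, at -0.69 (adjusted p = 0.0381, limma; lost without WT replicate 1 or 2 with 0.135 and 0.260, and without hCD2-iCre x Gfi1fl/fl replicate 2 with 0.0645). That call was also lost with a replicate block (0.0529), without the intensity trend (0.177), with a robust prior (0.0671) and with the mean per gene (0.0815), and was kept under 6 of 14 alternatives.

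**Figure D4:**
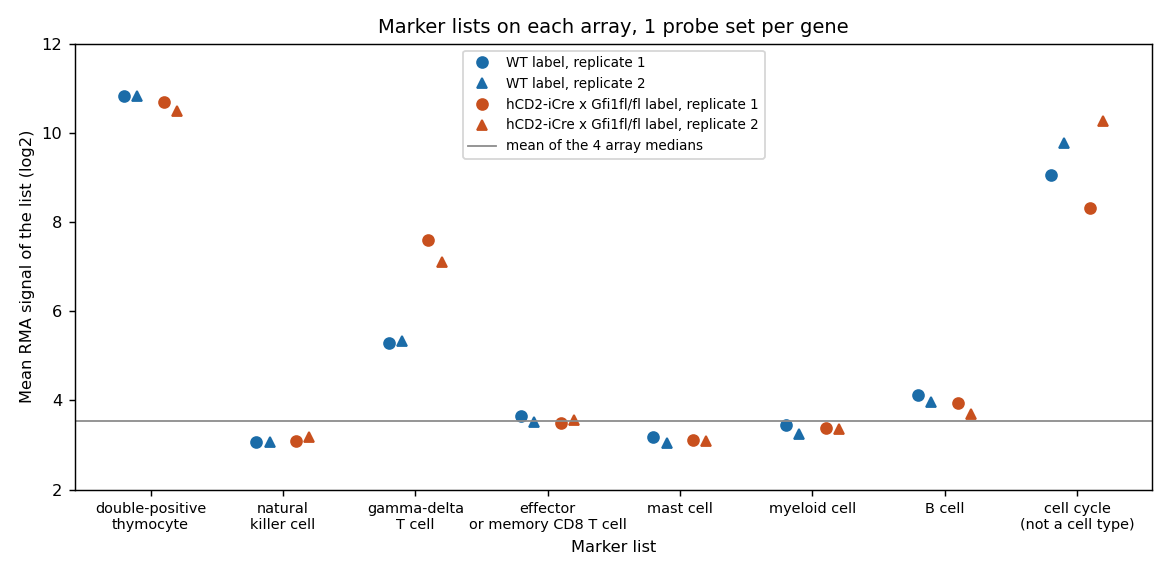
Mean RMA signal (log2, vertical axis) of each marker list on each array, with 1 probe set per gene; the grey line is the mean of the array medians. Natural killer and mast cell lists lie below it on every array (3.05 to 3.19). The cell cycle list separates the replicates of the hCD2-iCre x Gfi1fl/fl label. The mean of the gamma-delta T cell list, which includes Cd163l1 and Maf, separates the labels, but only 4 of the list's 8 probe sets had differences above 0.

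The 3 genes whose pattern over the 4 arrays was most like that of Gzma were Fam102a, Fabp5 and Dipk2a. Likeness was the Euclidean distance between log2 values centred on each probe set's own mean, and it was 0.09, 0.11 and 0.12. For Fam102a and Fabp5 the nearest probe set was not the gene's brightest. Fam102a read 5.25 and 5.08 on the WT arrays and 6.61 and 6.90 on the others. Fabp5, which encodes a fatty acid binding protein, read 7.17 and 6.84 against 8.51 and 8.86. Dipk2a read 8.70 and 8.51 against 10.001 and 10.34. These were chosen for their likeness, so the values are a description with no test, and 4 arrays under 2 labels define such a pattern only loosely.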

How the data were processed

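Total RNA of the sorted cells was turned into biotinylated cRNA with an Affymetrix 3' kit, 1 colour and 1 array per sample, per the labels' protocols. The deposited values were log2 signals per probe set, made with RMA and Affymetrix Expression Console 1.1, per the submitters' processing notes. They lay between 2.19 and 13.52, with nearly equal quartiles on the 4 arrays, and were used without further normalization. No detection calls were used here, so a low signal is judged only against the array medians. Precision is limited by having 2 arrays per label.

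Probe sets were named from the platform's annotation table: 28898 had 1 gene symbol, 551 had several and 15588 were not listed. The comparison used limma 3.58.1 (lmFit, then eBayes with an intensity trend; R 4.3.3) over all 45037 probe sets and without covariates. The 2 residual degrees of freedom per probe set were moderated by a prior of 5.05. A call is a Benjamini-Hochberg adjusted p of 0.05 or less, two-sided, over all probe sets, and intervals are 95% intervals of that fit. An exact permutation test over 2 against 2 arrays cannot go below p = 0.333 and was not used. The fit was tested on simulated data with known changes and spreads drawn from the fitted prior. It called 33.3% of changes of 1 log2 unit and 86.7% of changes of 2, and 5.5% of its calls were false. A change of 1 thus often goes without a call in this design. The simulated arrays were independent draws from the prior that the fit assumes, so the 5.5% does not measure the false share among the real calls.

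The members and lists were chosen with earlier results of these data known. Named were every probe set of the 10 genes, Gfi1, the called genes of each companion list (up to 3) or its 2 largest differences, up to 2 genes per marker list by the same rule, and the 3 genes most like Gzma. A gene was represented by its brightest probe set unless stated (the nearest one for genes like Gzma), and 63 of 71 marker genes were measured. Alternatives were a replicate block, 2 other scalings, filters on the dimmest 30% and 50%, 2 other priors, 2 gene summaries, an ordinary t statistic and leaving out each array. Foxo1, also named by the rule, had 1 low probe set that differed by -0.13 (limma, adjusted p = 0.891). Figures were drawn with matplotlib 3.10.9.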

Additional observations from a re-analysis of the deposited data

How the results depend on the processing

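Gzma was the 1 member probe set called under 13 of the 14 alternatives, with differences of 1.53 to 1.76 and adjusted p of 0.00259 to 0.0466 under the moderated ones. An ordinary t statistic, with 2 residual degrees of freedom, called 0 of the 12 (3 at an unadjusted p under 0.05). It called 1 of all probe sets and 0 companion probe sets. Leaving out 1 array gave 1 to 2 member calls, the second being Nkg7 without hCD2-iCre x Gfi1fl/fl replicate 1, 2 to 4 companion calls (2 without WT replicate 1) and 168 to 368 calls over the array (168 without WT replicate 2 and 178 without WT replicate 1). Over all probe sets the main count of 345 became 205 without the intensity trend, 190 with the brightest probe set per gene and 157 with the mean per gene, the last pair over 17097 genes. The 4 companion calls became 7 with a second quantile normalization, with the dimmest 30% or 50% left out and with the robust prior, and 2 without the trend; the cause was not tested. The labels share replicate numbers without saying that these pair the samples, and 2 pairs cannot show it (r = 0.30 between deviations of replicate 1 under the 2 labels). With the replicate number as a block, 272 probe sets, 1 member (Gzma) and 5 companion probe sets were called. Signs turned when an array was left out, in each case without a call, for Srgn (-0.11 to 0.21), Gzmc (-0.054 to 0.32), Prf1 1450335_PM_at (-0.21 to 0.15), Gnptab (-0.65 to 0.024), Serpinb6b (-0.59 to 0.072), Ccna2 (-1.47 to 0.83) and Cdk1 (-1.40 to 0.94). Low signals limit what Gzmb, Gzmc, Gzmk and Gzmm can show.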
